A study of Mus musculus with 6 samples.

Results

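The genes described are 10 core genes of transforming growth factor β (TGF-β) signalling, chosen by name from the 56953 genes of the count table. They are the ligand genes Tgfb1, Tgfb2, Tgfb3 and Inhba, the latency gene Ltbp1, the receptor genes Tgfbr1 and Tgfbr2, the signal transducer gene Smad3, and the inhibitor genes Smad7 and Skil. All 10 were detected in all 6 libraries, and all 10 passed the filter on low counts that left 14738 genes to test. RNA was sequenced from primary mouse pancreatic acini, the clusters of enzyme-secreting cells of the exocrine pancreas, on day 3 of an ex vivo culture in which acini lose their secretory identity and become duct-like (acinar-to-ductal metaplasia, ADM). The study compared wild-type acini with acini lacking DKK3, a secreted glycoprotein, and asked what returning the protein does to the null cells.

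The 6 libraries formed 3 groups of 2. WT libraries came from untreated wild-type acini and carried label ages of 10 and 11 weeks, DD libraries from untreated Dkk3-null acini at 12 and 13 weeks, and DD + rDKK3 libraries from Dkk3-null acini given recombinant DKK3 at 14 and 15 weeks. Age and group therefore cannot be told apart if these labels are right. WT 2 was labelled female and the other 5 libraries male, so sex is mixed within WT and uniform elsewhere. Per the methods, the knockout was ubiquitous and replaced the exon with the secretion signal, and acini of all groups were embedded in Matrigel and grown in serum-containing medium with dexamethasone. The labels do not say that replicates came from separate animals, and the titles name each treated library after the untreated null library of its number, without saying that an animal was shared, so the fit is unpaired and p-values measure the spread between these libraries, which may be partly technical.

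TGF-β ligands are secreted as inactive dimers, held in the matrix by a latency peptide and a latent TGF-β binding protein until they are released. A released ligand binds the type II receptor, which phosphorylates the type I receptor, and this in turn phosphorylates SMAD2 and SMAD3, which enter the nucleus with SMAD4 and turn genes on or off. SMAD7 and SKIL are themselves induced by the signal and restrain it. In the pancreas the pathway is known for driving stellate cells to make matrix and for limiting the growth of epithelial cells. Transcript counts show neither the amount of ligand protein nor how much of it was active.

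No member passed the test in any of the 3 comparisons. Tgfb1, the ligand gene of highest transcript level among the members, varied by 1.21-fold over the 6 libraries. Smad7, Tgfb3 and Ltbp1 were highest in the same pair of libraries, DD 2 and DD + rDKK3 2. Tgfbr2 was highest in DD libraries, and Inhba was lowest in WT 1. Each of these patterns is given below with its value in every library, as counts per 1000000 (CPM) with libraries scaled by the trimmed mean of M values, and tested with edgeR's quasi-likelihood test with Benjamini-Hochberg adjustment over all 14738 genes.

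Library totals ranged from 12018473 to 19750401 counts, so that the limit set by a count of 0, taken as 3 counts, lay between 0.142 and 0.295 CPM. Such floors cover counting error only. Dkk3 itself had too few counts to test, at 10 and 1 for the WT libraries, 11 and 9 for DD, and 5 and 5 for DD + rDKK3. Gene-level counts did not separate WT from the null libraries. The paper also reports similar overall Dkk3 levels in both genotypes, which it attributes to Dkk3b, an intracellular isoform from a separate start site. By exon-specific qPCR the paper reports loss of transcripts that hold the targeted exon. Counts per exon were not examined here. The 20 acinar markers, none at 0, summed to 205600 and 155700 CPM in WT, 130800 and 117100 CPM in DD, and 156700 and 129000 CPM in DD + rDKK3. DD 2 and DD + rDKK3 2 stood apart on the first principal component, which held 42.3% of the variance. WT 1 stood apart on the second, which held 32.3%, at 52.8 against −29.9 to 12.2 for the other libraries. Both comparisons with WT rest in part on this library. Fibroblast and stellate cell markers summed to 1430 CPM in DD 2 and 1448 CPM in DD + rDKK3 2, against 208 to 335 CPM in the other 4 libraries, and none of the 17 was at 0 in any library. Sparc, the most abundant, was at 147 and 130 CPM in WT, 94.8 and 435 CPM in DD, and 120 and 334 CPM in DD + rDKK3. Col1a1, a chain of type I collagen, was at 31.9 and 10.5 CPM in WT, 15.9 and 252 CPM in DD, and 49.8 and 305 CPM in DD + rDKK3. The summed level of the 11 macrophage markers was also highest in DD 2 and DD + rDKK3 2, at 272 and 211 CPM. Elsewhere it was 60.7 to 141 CPM, with the 141 CPM in WT 1. Not every marker followed the sum, since C1qa was at 19.6 CPM in WT 1, 22.8 CPM in DD 2 and 18.3 CPM in DD + rDKK3 2. Endothelial markers summed to between 122 and 202 CPM, mesothelial to between 8.50 and 35.2 CPM, and ductal to between 4848 and 7109 CPM. In bulk RNA, fewer cells of a type and less RNA per cell cannot be told apart.

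**Figure D1:**
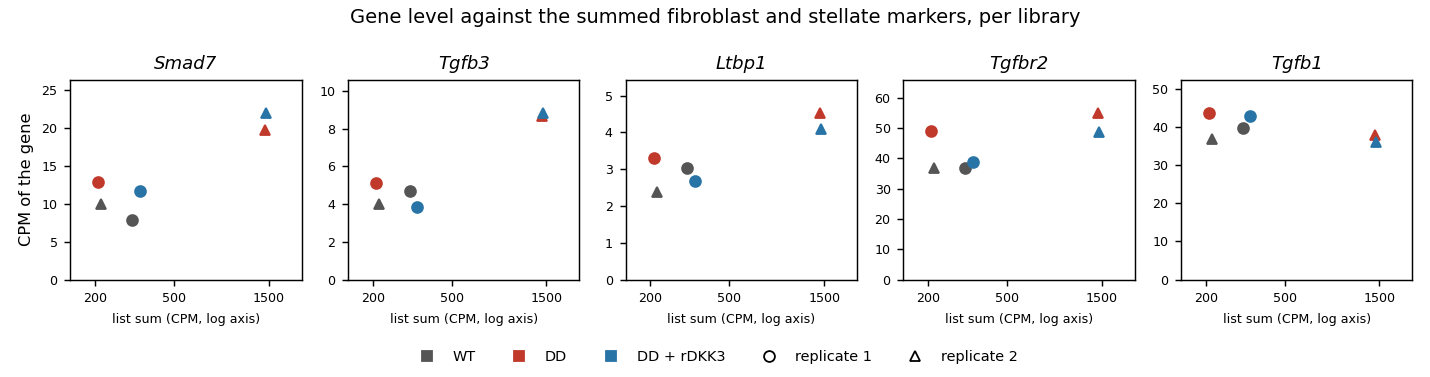
CPM of Smad7, Tgfb3, Ltbp1, Tgfbr2 and Tgfb1 (vertical axes) against the summed CPM of 17 fibroblast and stellate cell markers (horizontal log axes), with 1 point for each library, groups by colour and replicates by shape. DD 2 and DD + rDKK3 2 lie to the right, at 1430 and 1448 CPM, and are the highest libraries for Smad7, Tgfb3 and Ltbp1 but not for Tgfb1.

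Per kilobase of exon, Tgfb1 was the most abundant of the 10 transcripts, with a mean level over the 6 libraries of 17.8 CPM per kb, above Tgfbr1 in all 6. Tgfbr1 at 8.11 and Skil at 7.60 CPM per kb followed, and Tgfbr1 exceeded Skil in only 4 of 6 libraries. Skil exceeded Tgfbr2 in all 6. Tgfbr2 at 5.03 and Smad3 at 4.72 CPM per kb could not be ordered, since Tgfbr2 was above Smad3 in 3 of 6 libraries. Smad7, at 3.05 CPM per kb, was below Smad3 in 4 libraries and above the next gene, Tgfb3, in all 6. Tgfb3 at 1.33 CPM per kb was above Tgfb2, at 0.959 CPM per kb, in 4 of 6. Tgfb2 was above Ltbp1 in all 6, and Ltbp1 at 0.481 and Inhba at 0.480 CPM per kb could not be ordered.

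**Figure D2:**
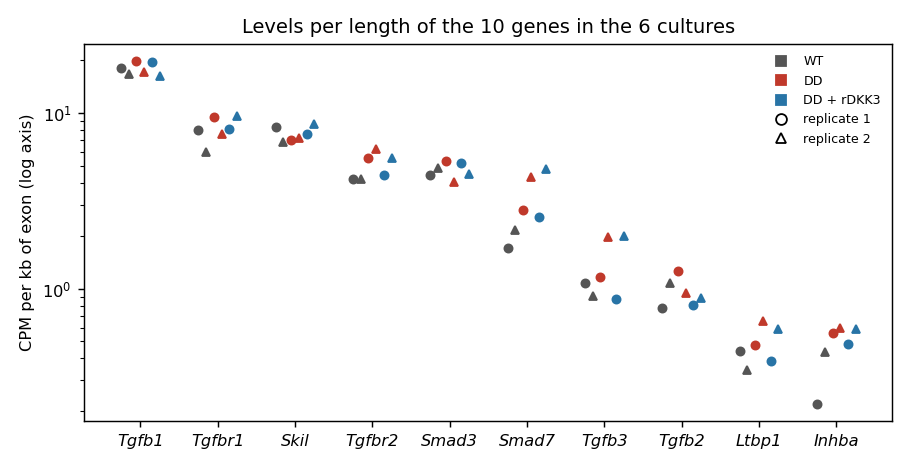
Level of each of the 10 genes per kilobase of exon (CPM per kb, log axis), with 1 point for each library the group shown by colour and the replicate by shape. Tgfb1 averages 17.8 CPM per kb and lies above every other gene in every library, while Ltbp1 and Inhba lie lowest.

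Tgfb1 (ENSMUSG00000002603.16, GRCm39 chromosome 7, 25386427 to 25404502, plus strand) encodes the TGF-β1 ligand. Its level was 39.6 and 36.9 CPM in WT, 43.6 and 37.7 CPM in DD, and 42.9 and 35.9 CPM in DD + rDKK3. The 3 groups overlapped, and the means of the groups lay closer together than the replicates of DD or of DD + rDKK3. DD differed from WT by a log2 fold change of 0.09 (SE 0.16, 95% interval −0.28 to 0.46, edgeR adjusted p = 0.839), and DD + rDKK3 from DD by −0.05 (SE 0.16, 95% interval −0.41 to 0.32, edgeR adjusted p = 1). As a share of the summed per-kilobase level of Tgfb1, Tgfb2 and Tgfb3, Tgfb1 made up 90.6% and 89.3% of the total in WT, 89.0% and 85.4% of it in DD, and 92.0% and 84.9% of it in DD + rDKK3. The lowest 2 shares were those of DD 2 and DD + rDKK3 2.

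Tgfb2 (ENSMUSG00000039239.15, chromosome 1, 186354989 to 186438186, minus strand) encodes the TGF-β2 ligand. It was at 4.42 and 6.11 CPM in WT, 7.15 and 5.35 CPM in DD, and 4.60 and 5.002 CPM in DD + rDKK3, from 45 to 151 counts a library. Both DD libraries were above both DD + rDKK3 libraries, while DD and WT overlapped. On the log2 scale DD exceeded WT by 0.24 (SE 0.27, edgeR adjusted p = 0.737), and DD + rDKK3 differed from DD by −0.38 (SE 0.27, 95% interval −1.004 to 0.24, edgeR adjusted p = 1).

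Tgfb3 (ENSMUSG00000021253.8, chromosome 12, 86103519 to 86125815, minus strand) encodes the TGF-β3 ligand. Its level was 4.72 and 4.004 CPM in WT, 5.11 and 8.64 CPM in DD, and 3.86 and 8.82 CPM in DD + rDKK3. DD 2 and DD + rDKK3 2 were high and the other 4 libraries lay close together. The gap between replicates of DD, and of DD + rDKK3, was therefore wider than that between group means. DD lay above WT with a log2 fold change of 0.66 (SE 0.43, 95% interval −0.35 to 1.66, edgeR adjusted p = 0.606), and this value was 0.24 without DD 2. The fold change of DD + rDKK3 against DD was −0.11 on the log2 scale (SE 0.42, edgeR adjusted p = 1), and ranged from −0.84 to 0.35 as single libraries were left out. The libraries high in Tgfb3 are those with fibroblast markers at 1430 and 1448 CPM. The part of these cells in the Tgfb3 level was not tested.

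Inhba (ENSMUSG00000041324.15, chromosome 13, 16186436 to 16206206, plus strand) encodes the inhibin βA chain, which dimerises to activin A, a ligand that also signals through SMAD2 and SMAD3. It was at 1.57 and 3.09 CPM in WT, 3.98 and 4.23 CPM in DD, and 3.43 and 4.20 CPM in DD + rDKK3, with 16 counts in WT 1 and 44 to 84 counts elsewhere. WT 1 was the low library, and both WT libraries were below the other 4. Fold changes on the log2 scale were 0.79 (SE 0.36, 95% interval −0.05 to 1.63, edgeR adjusted p = 0.586) for DD against WT, −0.11 (SE 0.35, edgeR adjusted p = 1) in DD + rDKK3 against DD, and 0.69 (SE 0.36, edgeR adjusted p = 0.369) in DD + rDKK3 against WT. The value in DD against WT was 0.42 without WT 1 and 1.39 without WT 2. DD 1, low in fibroblast markers, was close to DD 2 in Inhba. The part of the fibroblast marker difference in the Inhba level was not tested.

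Ltbp1 (ENSMUSG00000001870.17, chromosome 17, 75312563 to 75699507, plus strand) encodes a latent TGF-β binding protein, which anchors the inactive ligand in matrix. Its level was 3.05 and 2.39 CPM in WT, 3.31 and 4.53 CPM in DD, and 2.69 and 4.09 CPM in DD + rDKK3, from 31 to 77 counts a library. DD 2 and DD + rDKK3 2 were again highest, and DD + rDKK3 1 lay within the WT values. In log2 terms Ltbp1 differed by 0.53 (SE 0.34, 95% interval −0.27 to 1.33, edgeR adjusted p = 0.606) in DD against WT, −0.21 (SE 0.33, edgeR adjusted p = 1) in DD + rDKK3 against DD, and 0.33 (SE 0.35, edgeR adjusted p = 0.633) in DD + rDKK3 against WT. In DD against WT it was 0.30 without DD 2.

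RefSeq promoter sequences were available for 7 of the 10 members, and those of 3 are shown as examples of genes that supply and store the signal. The windows of Tgfb1, Tgfb2 and Ltbp1 are given 5′ to 3′ on the strand of the gene, placed on GRCm39 by exact match. Each holds the bases upstream of every exon of its gene in a GENCODE release later than that of the counts. The windows therefore end short of the gene starts given above. The full 250-base window of Tgfb2 has 167 bases in exons of Tgfb2 or of Gm29491, a gene of the opposite strand. Capitals mark CAGAC or its reverse complement GTCTG, searched on both strands, a short motif that SMAD3 and SMAD4 can bind. Tgfb1 has chr7:25386177-25386389 on the plus strand, Tgfb2 has chr1:186438295-186438436 on the minus strand, and Ltbp1 has chr17:75312274-75312518 on the plus strand.
Tgfb1: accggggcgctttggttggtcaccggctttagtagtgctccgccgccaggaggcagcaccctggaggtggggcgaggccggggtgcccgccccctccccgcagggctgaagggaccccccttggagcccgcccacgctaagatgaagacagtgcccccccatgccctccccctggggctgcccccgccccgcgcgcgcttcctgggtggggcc
Tgfb2: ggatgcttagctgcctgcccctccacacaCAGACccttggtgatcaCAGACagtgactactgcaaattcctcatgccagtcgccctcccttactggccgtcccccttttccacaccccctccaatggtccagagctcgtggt
Ltbp1: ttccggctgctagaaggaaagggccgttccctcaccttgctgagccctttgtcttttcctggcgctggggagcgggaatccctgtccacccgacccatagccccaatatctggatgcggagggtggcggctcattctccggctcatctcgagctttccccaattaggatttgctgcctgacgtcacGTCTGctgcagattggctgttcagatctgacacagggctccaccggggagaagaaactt
The Tgfb1 window, 74.6% G and C over 213 bases, held no match, where 37.6% of 32851 promoter windows of the same extent held at least 1. The Tgfb2 window held 2 matches, 221 and 204 bases before the RefSeq start, and 27.5% of windows of that extent held at least 1. Over full windows of 250 bases, 11.7% of promoters held 2 or more. The Ltbp1 window shown, that of the start at the annotated 5′ end of the gene, held 1, 64 bases before the start, against 41.6% of windows. RefSeq gives Ltbp1 a second, internal start, whose window, not shown, held 2 matches, 148 and 97 bases before it. None of the 3 held TGANTCA, the AP-1 motif, present in 5.92%, 3.73% and 6.66% of windows of the respective extents. The window of Inhba, a further ligand gene with a RefSeq entry, is not shown and held neither motif. A match is a description of the letters, and no binding was measured.

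Tgfbr1 (ENSMUSG00000007613.16, chromosome 4, 47353222 to 47414931, plus strand) encodes the type I receptor kinase. It was at 51.8 and 38.8 CPM in WT, 61.3 and 49.6 CPM in DD, and 52.7 and 62.3 CPM in DD + rDKK3. WT 2 was the lowest library, DD overlapped both other groups, and both DD + rDKK3 libraries were above both WT libraries. Tgfbr1 differed by a log2 fold change of 0.29 (SE 0.20, edgeR adjusted p = 0.610) in DD against WT, 0.05 (SE 0.20, edgeR adjusted p = 1) in DD + rDKK3 against DD, and 0.35 (SE 0.20, 95% interval −0.11 to 0.80, edgeR adjusted p = 0.395) in DD + rDKK3 against WT.

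Tgfbr2 (ENSMUSG00000032440.14, chromosome 9, 115913361 to 116004428, minus strand) encodes the type II receptor, which binds the ligand. Its level was 36.9 and 36.8 CPM in WT, 48.9 and 55.0 CPM in DD, and 38.9 and 48.8 CPM in DD + rDKK3. Both DD libraries were above the other 4, although DD 1 barely exceeded DD + rDKK3 2, and both DD + rDKK3 libraries were above WT. The WT mean of 36.9 CPM had an SD of 0.0933 (n = 2), the DD mean was 52.0 ± 4.27 CPM (SD, n = 2) and the DD + rDKK3 mean 43.9 ± 7.05 CPM (SD, n = 2). DD exceeded WT by 0.49 on the log2 scale (SE 0.16, 95% interval 0.12 to 0.87), with an unadjusted edgeR p of 0.0168 and an adjusted p of 0.586. It was −0.24 (SE 0.16, 95% interval −0.62 to 0.13, edgeR adjusted p = 1) in DD + rDKK3 against DD. Leaving out single libraries left the DD against WT value between 0.41 and 0.60. The ratio of Tgfbr1 to Tgfbr2, per kilobase, was 1.90 and 1.43 for the WT libraries, 1.69 and 1.22 for DD, and 1.83 and 1.72 for DD + rDKK3. Both treated libraries lay above both DD libraries in this ratio, which was not tested, and WT overlapped each of the other groups.

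Smad3 (ENSMUSG00000032402.13, chromosome 9, 63554049 to 63665276, minus strand) encodes the transducer that the receptor phosphorylates. It was at 23.5 and 25.8 CPM in WT, 28.1 and 21.5 CPM in DD, and 27.3 and 23.9 CPM in DD + rDKK3. Both extremes were DD libraries, and all groups overlapped. Smad3 differed by 0.01 on the log2 scale (SE 0.18, 95% interval −0.42 to 0.44, edgeR adjusted p = 0.988) in DD against WT and by 0.04 (SE 0.18, 95% interval −0.38 to 0.47, edgeR adjusted p = 1) in DD + rDKK3 against DD. These intervals leave room for changes of either sign.

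Smad7 (ENSMUSG00000025880.12, chromosome 18, 75500600 to 75529006, plus strand) encodes the inhibitory SMAD that blocks the type I receptor, and had the widest range of the 10, at 2.80-fold. Its level was 7.86 and 9.97 CPM in WT, 12.8 and 19.8 CPM in DD, and 11.7 and 22 CPM in DD + rDKK3. All 4 null libraries were above both WT libraries, and DD 2 and DD + rDKK3 2 were highest. DD exceeded WT by a log2 fold change of 0.86 (SE 0.35, 95% interval 0.06 to 1.67), with an unadjusted edgeR p of 0.0384 and an adjusted p of 0.586. DD + rDKK3 exceeded WT by 0.91 (SE 0.35, 95% interval 0.11 to 1.72), with an unadjusted edgeR p of 0.0309 and an adjusted p of 0.321, and both comparisons share the WT libraries. In DD + rDKK3 against DD it was 0.05 (SE 0.33, 95% interval −0.73 to 0.82, edgeR adjusted p = 1). The value of DD against WT was 0.52 without DD 2. With DD 2 and DD + rDKK3 2 both left out, which leaves each null group with a lone library assumed to vary like the others, DD + rDKK3 against WT was 0.40 with an unadjusted edgeR p of 0.263. Without the filter on low counts, Smad7 passed in both comparisons with WT, at adjusted p = 0.0133 and 0.00723, in fits that called 528 and 788 genes in all. The part of the fibroblast marker difference in the Smad7 level was not tested.

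Skil (ENSMUSG00000027660.17, chromosome 3, 31149207 to 31176726, plus strand) encodes SnoN, which binds SMAD complexes on DNA and represses their targets. It was at 59.5 and 48.5 CPM in WT, 49.8 and 51.4 CPM in DD, and 53.8 and 61.9 CPM in DD + rDKK3. WT spanned both DD libraries, and both DD + rDKK3 libraries were above both DD libraries. Skil differed by −0.09 on the log2 scale (SE 0.16, edgeR adjusted p = 0.838) in DD against WT and by 0.19 (SE 0.16, 95% interval −0.18 to 0.57, edgeR adjusted p = 1) in DD + rDKK3 against DD. With library size as the only scaling, the DD against WT value turned to 0.12. The per-kilobase ratio of Skil to Smad7, the pair of inhibitors, was 4.90 and 3.14 for the WT libraries, 2.51 and 1.68 for DD, and 2.96 and 1.82 for DD + rDKK3. This ratio was lowest in DD 2 and DD + rDKK3 2 and below WT in all 4 null libraries.

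**Figure D3:**
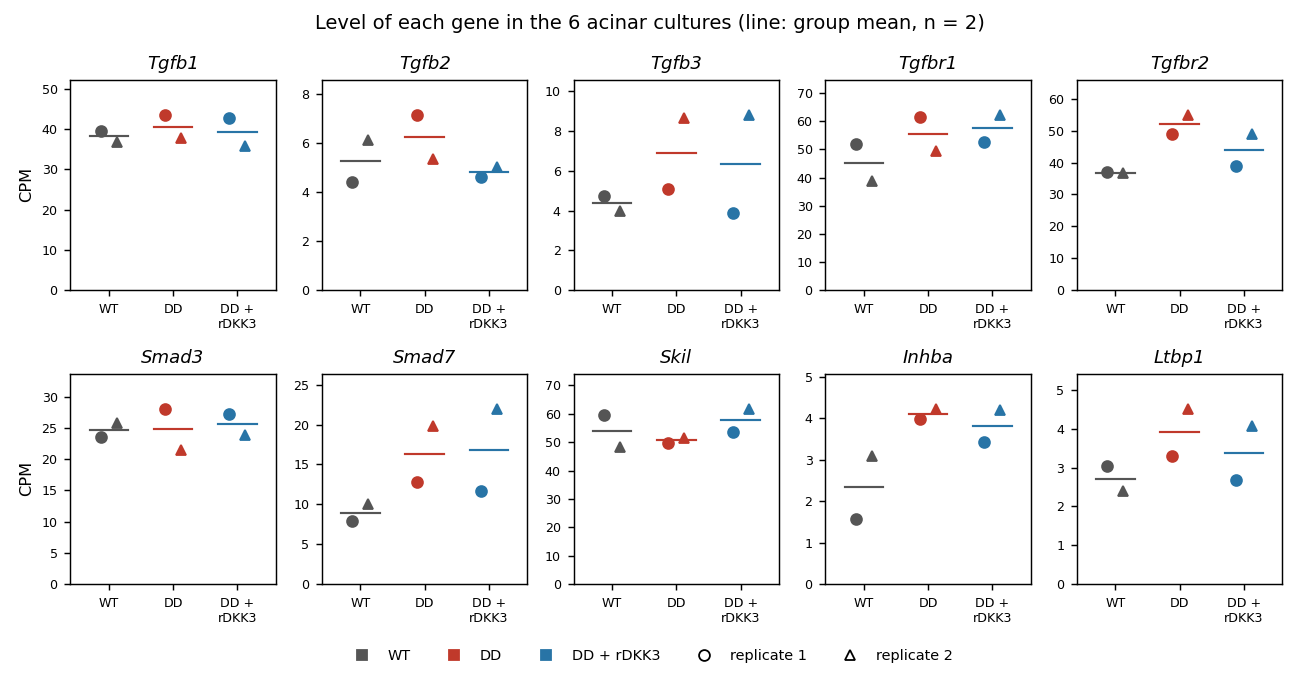
CPM of each of the 10 genes in the 6 libraries, with 1 point for each library (shape by replicate) and a line at the mean of each group of 2. Smad7, Tgfb3 and Ltbp1 are highest in DD 2 and DD + rDKK3 2, and Tgfb1 stays between 35.9 and 43.6 CPM.

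Set against the whole table, the 10 genes gave no call in DD against WT, where edgeR called 0.0407% of all genes. At an unadjusted p under 0.05, 2 of 10 members (Tgfbr2 and Smad7) were higher and 0 lower, beside 4.27% and 3.99% of all genes. DESeq2 also called 0 members, with 2 at an unadjusted p under 0.05, and limma-voom called 0, with 1. In 5 members (Tgfb3, Inhba, Ltbp1, Tgfbr2 and Smad7) both DD libraries were above both WT libraries, beside 18.1% of all genes, and in 0 were both below, beside 19.7%. The fold change was above 0 for 9 of 10, Skil being the exception, beside 51.7% of all genes. The median log2 fold change was 0.39 over the members and 0.02 over all genes tested. In the same comparison 17 of 20 acinar markers were below 0, with a median of −0.59, and edgeR called 0 of them (7 at an unadjusted p under 0.05). The part of the acinar share in the members' values was not tested.

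Recombinant DKK3 gave no call among the members against DD, where edgeR called 0% of all genes, and 0 members had an unadjusted p under 0.05, beside 1.98% of all genes (0.597% higher and 1.38% lower). DESeq2 and limma-voom called 0 as well, each with 0 at an unadjusted p under 0.05. Skil was the 1 member with both treated libraries above both DD libraries, beside 15.1% of all genes, and Tgfb2 and Tgfbr2 were the 2 with both below, beside 14.4%. The fold change was above 0 for 4 of 10 members and for 49.5% of all genes. The median log2 fold change was −0.08 over the members and 0.00 over all genes. Of the 20 acinar markers, 0 were below 0 in this comparison, with a median of 0.26, and edgeR called 0 (1 at an unadjusted p under 0.05). For Tgfb3 and Smad7 the 95% intervals reached from −1.08 to 0.85 and from −0.73 to 0.82, so that changes within these ranges remain possible with 2 libraries a group.

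Between DD + rDKK3 and WT, edgeR called 0 members and 0.0475% of all genes. Smad7 was the 1 member with an unadjusted p under 0.05, beside 15.3% of all genes (7.34% higher and 8% lower). DESeq2 called 0 with 1 at that level, and limma-voom 0 with 0. Tgfbr1, Tgfbr2, Smad7 and Inhba were the 4 members with both treated libraries above both WT libraries, beside 27.9% of all genes, and 0 members had both below, beside 27.1%. The fold change was above 0 for 9 of 10 members, Tgfb2 being the exception, and for 51.6% of all genes. The median log2 fold change was 0.29 over the members and 0.02 over all genes. Without DD 2 and DD + rDKK3 2 the members' median was 0.12.

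**Figure D4:**
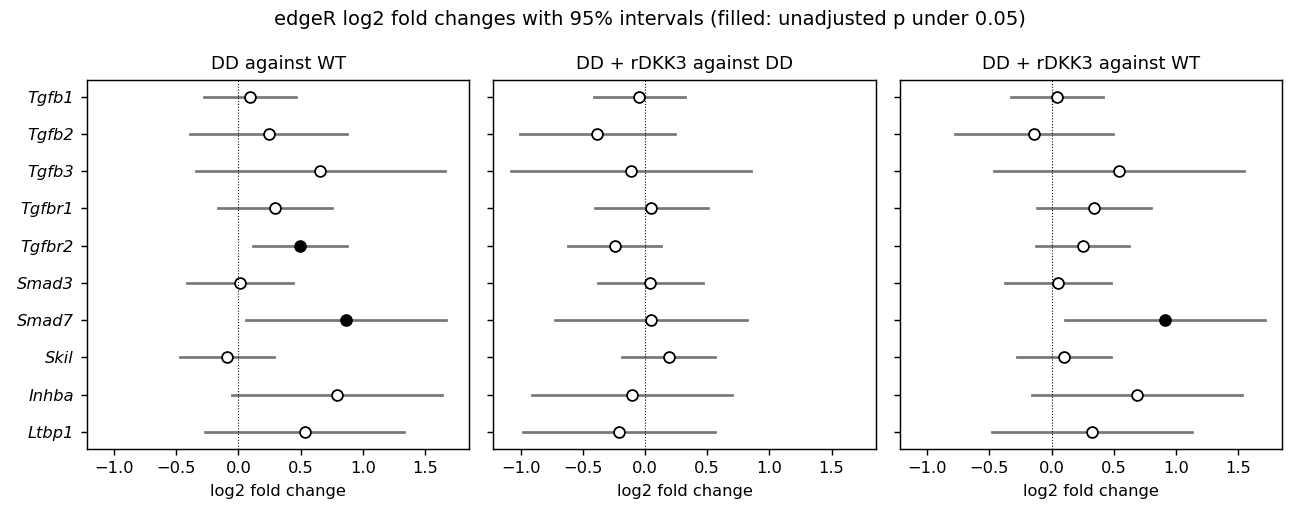
Log2 fold change of each of the 10 genes in the 3 comparisons, with bars for the 95% interval of the edgeR fit, filled points for an unadjusted p under 0.05 and a dotted line at 0. The intervals lie above 0 for Tgfbr2 and Smad7 in DD against WT and for Smad7 in DD + rDKK3 against WT, with adjusted p of 0.586, 0.586 and 0.321.

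The rest of the pathway was followed in 6 lists of genes around the 10 members. With the filter on low counts, edgeR called no gene of any list in any comparison. The genes named are those with the smallest p of their list in a comparison. Without that filter edgeR called, of these, Ltbp2, Smurf1, Plaur, Ccn2 and Id1 in DD against WT, and Plaur in DD + rDKK3 against DD. In DD + rDKK3 against WT it called Acvr1c, Ep300, Ski, Pmepa1, Itga5, Postn and Atoh8. Those fits called 528, 73 and 788 genes in all. Of 18 tested ligand and activation genes, 1 had an unadjusted p under 0.05 in DD against WT, beside 8.26% of all genes. It was Furin, the protease that cuts TGF-β precursors, at 113 and 119 CPM in WT, 156 and 170 CPM in DD, and 151 and 174 CPM in DD + rDKK3 (log2 fold change 0.49 in DD against WT, edgeR adjusted p = 0.586). Furin was higher in all 4 null libraries than in both WT libraries. Ltbp2, a matrix protein of the latent-binding family, was at 5.11 and 1.76 CPM in WT, 3.50 and 34.3 CPM in DD, and 8.93 and 38.2 CPM in DD + rDKK3, again high in the libraries rich in fibroblast markers. Its log2 fold change of 2.496 in DD against WT was 0.08 at the lowest as single libraries were left out. Lefty1, a secreted antagonist of NODAL, was at 3.54 and 3.65 CPM in WT, 2.41 and 2.94 CPM in DD, and 2.32 and 1.88 CPM in DD + rDKK3, lower in every null library than in WT. Itgb6, a chain of the integrin that releases latent TGF-β, differed by −0.24 on the log2 scale in DD + rDKK3 against DD (edgeR adjusted p = 1).

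Among 11 tested receptors and co-receptors, Acvr1c, the type I receptor ALK7, was at 2.06 and 1.76 CPM in WT, 3.03 and 3.47 CPM in DD, and 4.07 and 4.68 CPM in DD + rDKK3. The 3 groups did not overlap, with a log2 fold change of 1.198 (SE 0.29, edgeR adjusted p = 0.321) in DD + rDKK3 against WT. Acvr1, a BMP type I receptor, was at 8.45 and 8.50 CPM in WT, 10.0 and 11.3 CPM in DD, and 10.7 and 15.0 CPM in DD + rDKK3. The log2 fold changes of Bmpr2 in DD against WT and Acvr2b in DD + rDKK3 against DD were 0.42 and 0.37. The median log2 fold change of the receptor list was 0.32 in DD against WT, 0.08 in DD + rDKK3 against DD and 0.40 in DD + rDKK3 against WT.

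Among 10 tested SMADs and partners, 0 had an unadjusted p under 0.05 in DD against WT, and 4 did in DD + rDKK3 against WT, all higher, beside 7.34% of all genes. Ep300, an acetyltransferase recruited by SMADs, was at 14.2 and 26.3 CPM in WT, 30.8 and 26.6 CPM in DD, and 34.9 and 36.5 CPM in DD + rDKK3, with WT 1 low. Tgfbrap1, a receptor-associated protein, was at 18.0 and 25.2 CPM in WT, 28.5 and 23.9 CPM in DD, and 31.4 and 33.0 CPM in DD + rDKK3. Crebbp, the acetyltransferase related to Ep300, had a log2 fold change of 0.31 in DD + rDKK3 against DD.

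All 15 inhibitors and feedback genes were tested, and 3 had an unadjusted p under 0.05 in DD against WT and 7 in DD + rDKK3 against WT, all higher, beside 4.27% and 7.34% of all genes. Smurf1, a ubiquitin ligase that targets SMADs and receptors, was at 21.0 and 21.6 CPM in WT, 36.8 and 31.9 CPM in DD, and 28.9 and 27.3 CPM in DD + rDKK3. Its groups did not overlap, with a log2 fold change of 0.69 (SE 0.15, edgeR adjusted p = 0.466) in DD against WT. Ski, the relative of Skil, was at 29.3 and 30.0 CPM in WT, 41.6 and 36.2 CPM in DD, and 44.7 and 52.7 CPM in DD + rDKK3. Both DD + rDKK3 libraries were above all others. With the low-count filter, DESeq2, unlike edgeR, called Ski in DD + rDKK3 against WT (0.71, DESeq2 adjusted p = 0.0315). Without the filter edgeR called it too (0.76, edgeR adjusted p = 0.00596). Pmepa1, a TGF-β-induced inhibitor of SMADs, was at 24.3 and 20.2 CPM in WT, 31.1 and 36.2 CPM in DD, and 31.0 and 46.3 CPM in DD + rDKK3. Sik1, a kinase linked to receptor turnover, was at 20.8 and 22.2 CPM in WT, 23.6 and 22.6 CPM in DD, and 27.0 and 30.2 CPM in DD + rDKK3.

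All 18 TGF-β targets were tested, and 5 had an unadjusted p under 0.05 in DD against WT, all higher, beside 4.27% of all genes. In DD + rDKK3 against DD 3 had it, all lower, beside 1.38% of all genes. Over the list, the median log2 fold change of DD against WT was 0.75 and that of DD + rDKK3 against DD −0.07, and these comparisons share the DD libraries. Plaur was picked out by the study from these samples, so its place in the list is not independent evidence. Plaur, the urokinase receptor, was at 22.6 and 25.9 CPM in WT, 42.8 and 47.6 CPM in DD, and 25.3 and 27.0 CPM in DD + rDKK3 (log2 fold change 0.90, edgeR adjusted p = 0.300). Ccn2, a matricellular protein, was at 31.9 and 37.0 CPM in WT, 63.9 and 52.7 CPM in DD, and 44.3 and 41.3 CPM in DD + rDKK3 (log2 fold change 0.76, edgeR adjusted p = 0.442). In both genes the DD libraries were above all others, and DD 1 was near DD 2. DESeq2 called both in DD against WT, at adjusted p = 0.0024 and 0.0263, and Plaur in DD + rDKK3 against DD, at adjusted p = 0.042.

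The remaining named targets were highest in the libraries rich in fibroblast markers. Postn, periostin of the matrix, was at 2.85 and 2.81 CPM in WT, 2.56 and 26.0 CPM in DD, and 4.91 and 33.6 CPM in DD + rDKK3. Itga5, the α chain of the fibronectin receptor, was at 14.2 and 22.5 CPM in WT, 27.6 and 75.0 CPM in DD, and 28.8 and 80.8 CPM in DD + rDKK3. Itga5 was also higher than in WT in the null libraries low in fibroblast markers, DD 1 and DD + rDKK3 1. With DD 2 and DD + rDKK3 2 left out, the target list's median in DD against WT was 0.25 in place of 0.75. Of 5 tested BMP-arm targets, Id1 was at 87.6 and 69.6 CPM in WT, 87.7 and 162 CPM in DD, and 86.8 and 140 CPM in DD + rDKK3, and Atoh8 at 28.4 and 22.8, 25.7 and 42.9, and 33.1 and 56.6 CPM. The part of the fibroblast marker difference in these values was not tested.

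**Figure D5:**
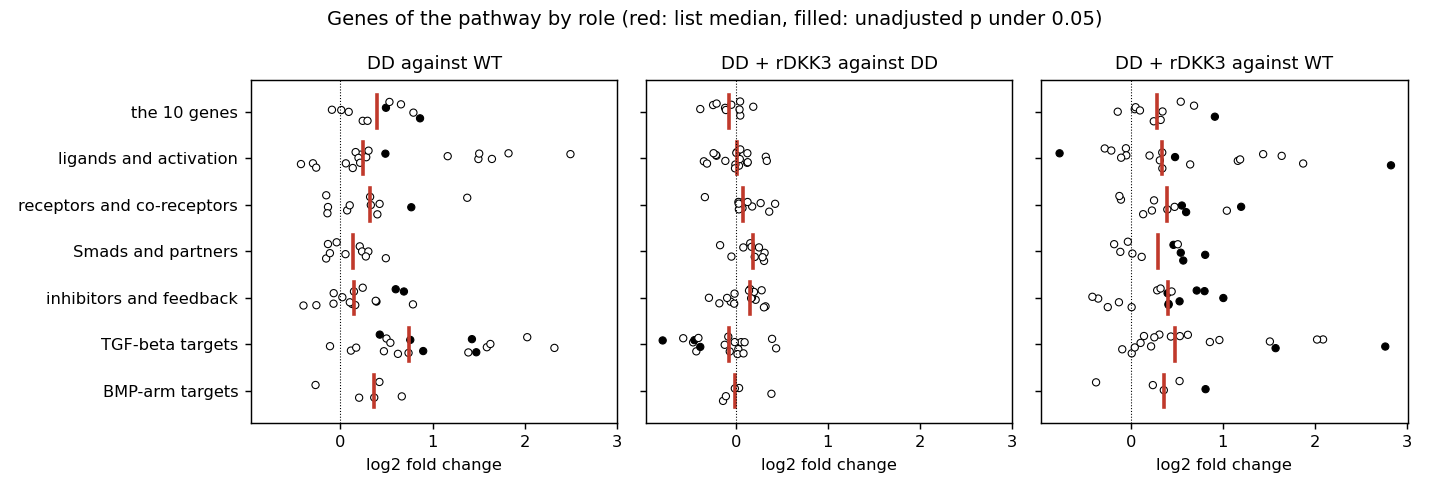
Log2 fold changes of the tested genes of each pathway list in the 3 comparisons, with 1 point for each gene (filled where the unadjusted p was under 0.05) and a red bar at the list's median, the 10 members forming the top line. The TGF-β target list has a median of 0.75 in DD against WT and −0.07 in DD + rDKK3 against DD.

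For each member, the protein-coding gene of most alike pattern was taken as that with the highest Pearson r of log2 CPM over the 6 libraries, among 12697 others. For Smad7 this was Pakap (r = 0.994), with 81 genes over 0.95, and for Tgfb3 it was Thsd7a (r = 0.997), with 63 genes over 0.95. For Tgfb1 it was Impdh1 (r = 0.977), with 4 genes over 0.95. For Tgfbr1 and Tgfbr2 these were Sgms2 (r = 0.999) and Nrcam (r = 0.991), and for Smad3 and Skil they were Srp72 (r = 0.996) and Tango6 (r = 0.975). For Tgfb2, Inhba and Ltbp1 they were Igsf9b (r = 0.990), Dgkg (r = 0.997) and Klf4 (r = 0.992). Inhba had the most genes over 0.95 of any member, at 166. Some of the matched genes had few counts. Dgkg was at 0.197 CPM in WT 1, below the limit of 0.295 CPM there, and Thsd7a at 0.211 CPM in DD + rDKK3 1. These r describe 6 libraries, of which DD 2 and DD + rDKK3 2 stand apart on the first principal component and WT 1 on the second. They carry no test.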

How the data were processed

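RNA from 6 libraries (3 groups of 2) was sequenced with a strand-specific kit. The authors aligned reads with STAR 2.7.9a to GRCm39 with the basic GENCODE annotation and deposited raw counts per gene, made by counting alignments over exons by strand and before any normalisation. Of 57045 features, 92 spike-in rows, at 0 counts, were left out, and 0 columns were unmapped. Counting by gene joins all isoforms, and total counts of 12018473 to 19750401 a library set the precision of the low genes.

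Counts were tested with edgeR 4.0.16 (R 4.3.3): TMM scaling, filterByExpr (minimum count 10, minimum total 15), a quasi-likelihood fit over all 6 libraries, and Benjamini-Hochberg adjustment over 14738 genes, called at adjusted p under 0.05. Log2 CPM used a prior count of 2. The residual degrees of freedom were 3. DESeq2 1.42.0, limma 3.58.1 (voom), other scalings and filters, left-out libraries and a replicate block were alternatives. All 10 members are named, as are, for each pathway list, the 2 genes with the smallest p in each comparison, the 1 gene most like each member, Dkk3, and the 2 most abundant fibroblast markers. One gene that this rule names is not reported here. Levels per kilobase used the union of annotated exons of a GENCODE release later than that of the counts. Members and lists were chosen with earlier results of these data known. The count test was checked on simulated data. Promoter sequences are from RefSeq.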

Additional observations from a re-analysis of the deposited data

How the results depend on the processing

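With 2 libraries a group, depth and number limit what can be shown. No member was called under other scalings, a stricter filter, DESeq2, limma-voom, fits of only the compared groups or left-out libraries. Without a low-count filter, 1 member was called in DD against WT and 1 in DD + rDKK3 against WT, Smad7 in both (0.92 and 0.96), and 528, 73 and 788 genes were called in the comparisons of DD with WT, treated with untreated null acini, and treated null with WT. In that order DESeq2 called 77, 5 and 61 genes, limma-voom 3 in DD + rDKK3 against WT, and the fit without DD 2 and DD + rDKK3 2 called 14 in DD against WT. The cause was not tested. With single libraries left out, genes called ranged from 2 to 4, 0 to 0 and 2 to 5 in these comparisons, and members called stayed at 0.

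In the titles a treated library carries the name (DD1 or DD2) of the untreated null library with its number, but replicate numbers were not treated as pairs, since the labels name no shared animal and there are 2 numbers only. Deviations from the group means correlated at 0.65 between DD and DD + rDKK3, −0.39 between WT and DD and −0.25 between WT and DD + rDKK3. With a replicate block over all 6 libraries, 7, 0 and 5 genes and 0 members were called, and with the block within the null libraries 0 genes and 0 members were called in DD + rDKK3 against DD, where Smad7 was at 0.01 and Tgfb3 at −0.18.

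With no scaling beyond library size, the median log2 fold change over all genes was 0.22 for DD against WT and 0.18 for DD + rDKK3 against WT. The direction then turned for Skil in DD against WT (0.12), Smad3 in DD + rDKK3 against DD (−0.0009) and Tgfb2 in DD + rDKK3 against WT (0.0087). Smad3 in DD against WT turned with limma-voom (−0.0017) and the block (−0.0051). Without DD 2 and DD + rDKK3 2, Tgfbr1 (−0.21), Smad3 (−0.038) and Smad7 (−0.12) turned in DD + rDKK3 against DD, and Tgfb3 (−0.17) in DD + rDKK3 against WT. With single libraries left out, the values that changed sign ranged, in DD against WT, from −0.18 to 0.19 for Smad3 and −0.23 to 0.078 for Skil. In DD + rDKK3 against DD they ranged from −0.19 to 0.070 for Tgfb1, −0.84 to 0.35 for Tgfb3, −0.093 to 0.19 for Tgfbr1, −0.14 to 0.23 for Smad3, −0.48 to 0.42 for Smad7, −0.26 to 0.018 for Inhba, −0.55 to 0.047 for Ltbp1, −0.53 to 0.37 for Id1 and −0.061 to 0.81 for Atoh8. In DD + rDKK3 against WT they ranged from −0.090 to 0.17 for Tgfb1, −0.33 to 0.12 for Tgfb2, −0.17 to 1.02 for Tgfb3, −0.047 to 0.15 for Smad3, −0.037 to 0.27 for Skil and −0.0003 to 0.59 for Ltbp1.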
